A study of Mus musculus with 24 samples.

Results

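Ear skin of mice that carry the E7 oncogene of human papillomavirus 16 (K14E7 mice, called E7 here) was compared with ear skin of C57BL/6 mice without it (called C57), both at 8 weeks of age. Members were the 3 libraries whose titles give E7 at 8 weeks and the 3 that give C57 at 8 weeks, 6 of the 24 RNA-seq libraries of the series. In K14E7 mice the viral gene stands behind the keratin 14 promoter, which is active in basal keratinocytes, and the labels give C57BL/6 as the strain of both groups. Whole ear skin was taken, so each library holds epidermis and dermis with the fat, muscle, nerve, vessels and cartilage of the ear. The other libraries came from donor skin grafted onto C57BL/6 recipients. Of these, 3 E7 and 3 C57 grafts at each of 14 and 28 days after grafting are used at the end. The 6 grafts of CD1dKOxE7 donors, labelled CD1d-/-, are in no contrast. They enter the filter, scaling and estimate of the spread of 1 fit, and a comparison of same-numbered grafts. The labels do not say whether each library is 1 mouse, so p-values measure the spread between these samples, which may in part be technical.

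E7 binds the retinoblastoma protein and its relatives and marks them for breakdown, which frees E2F transcription factors to switch on genes for DNA replication. Normal epidermis divides in its basal layer on the basement membrane. Keratinocytes that leave this layer stop dividing, change keratins, build the cornified envelope from loricrin, small proline-rich and late cornified envelope proteins, and lay down barrier lipids. Murine epidermis also houses Langerhans cells and dendritic epidermal T cells, which carry a gamma-delta receptor.

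Libraries are called E7-a, E7-b and E7-c and C57-a, C57-b and C57-c by rising number in their titles, and values are listed in that order. Library totals were 10904471, 10540081 and 11054422 counts in E7 ears, against 11491770, 12527229 and 13814448 counts in C57 ears. All 6 libraries share 1 flow cell lane per the labels. Mitochondrially encoded genes held 2.006% to 2.147% of counts in E7 ears and 2.531% to 3.386% in C57 ears, and the first principal component, which separated the groups, held 87.8% of the variance. Values below are CPM, counts put on a common library total after TMM scaling; they are not divided by gene length, so levels are compared between libraries and not between genes. The E7 row had 57.9, 55.3 and 42.6 CPM in E7 ears, against 0, 0.0759 and 0.137 CPM in C57 ears. The E7 row stood at 3 counts over the C57 group (0, 1 and 2), so the labels match the transgene in every library.

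Of 15720 genes tested with edgeR's quasi-likelihood test, 10267 (65.3%) passed an adjusted p of 0.05, of which 5129 rose (32.6%) and 5138 fell (32.7%) in E7 ears. With a change of at least 2-fold, 1252 rose (7.96%) and 2111 fell (13.4%), whereas at least 8-fold 175 rose and 15 fell. The median log2 fold change over all genes was 0.00. It was -0.12 with upper-quartile scaling, where 3993 rose and 6221 fell, and -0.15 with library totals alone, where 3722 rose and 6534 fell; changes of that size depend on the scaling. In 11183 genes (71.1%) no E7 library fell within the C57 range and no C57 library within the E7 range. Since most genes passed and most did not overlap, a list is described below by how far its counts and its median lie from these figures.

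**Figure D1:**
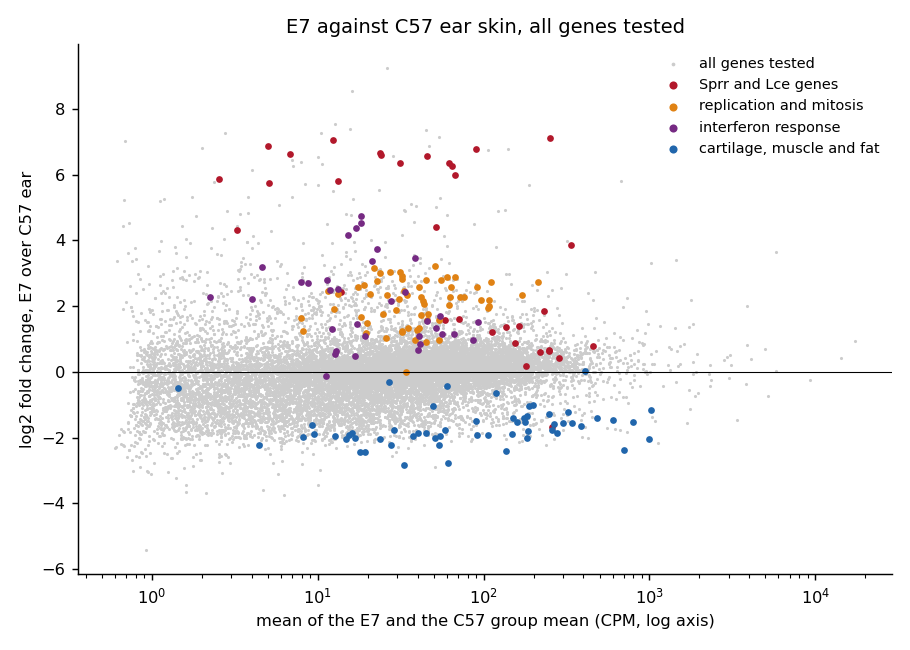
Log2 fold change (E7 over C57 ear, vertical axis) against the mean level (CPM, log axis) for 15720 genes, with 4 groups of genes coloured. The highest of the coloured points are Sprr and Lce genes, most replication and mitosis genes lie between 1 and 3, and nearly all cartilage, muscle and fat genes lie below 0.

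The largest rises included genes of stressed epidermis and genes best known from other organs. Adgrg7, an adhesion G protein-coupled receptor on chromosome 16, had 33.4, 22.3 and 40.9 CPM in E7 ears, against 0, 0.152 and 0.0685 CPM in C57 ears. Its C57 group holds only 3 counts. Nppb, which encodes brain natriuretic peptide and lies at chr4:147985786-147987205 (GRCm38.p6), had 23.4, 22.8 and 29.1 CPM in E7 ears, against 0.166, 0.152 and 0.0685 CPM in C57 ears (log2 fold change 7.53 ± 0.26, SE; adjusted p = 3.66e-09). No E7 library came near a C57 library for either gene. Spink7, a protease inhibitor (7.38), Lpo, lactoperoxidase (7.37), and Stfa3, a stefin (6.79), followed, with Cstdc6, another stefin, at 7.25 (7.84 without C57-c). Abcb11, known as the bile salt export pump of the liver, had 3.70, 3.36 and 4.90 CPM in E7 ears, against 0, 0 and 0.0685 CPM in C57 ears, with 1 count over the C57 group. Mup13, of the major urinary proteins, and Adgrf1, an adhesion receptor, had no count in C57 ears and were below the filter of the test. Mup13 had 49 counts over the E7 group, at least 21.1-fold higher than a floor of 3 counts over the C57 group, and Adgrf1 had 30 counts, at least 12.9-fold higher. Mup13 and Adgrf1 were chosen after their values were seen, and Mup13 belongs to a family of near-identical copies.

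The largest falls were smaller in size. Scgb1a1, the secretoglobin of airway club cells, had 0, 0.0988 and 0 CPM in E7 ears, against 1.24, 2.43 and 1.78 CPM in C57 ears. Only 1 count stood over the E7 group, and the other airway markers Sftpc and Foxj1 were at or near 0 in both groups. Mrgprb3, of the Mas-related receptor family, had 0.974, 0.692 and 0.480 CPM in E7 ears, against 7.70, 10.9 and 7.40 CPM in C57 ears (log2 fold change -3.58 ± 0.29; adjusted p = 1.17e-06). Krtap3-2, a hair shaft protein, had 2.53, 1.68 and 0.864 CPM in E7 ears, against 18.6, 19.4 and 17.3 CPM in C57 ears (-3.44 ± 0.23). In each of these the highest E7 library lay far under the lowest C57 library. Ccdc27 (-3.70), the vesicle GTPase Rab3b (-3.66; -4.28 without E7-b), the actin bundler Pls1 (-3.12), the nicotinic receptor subunit Chrnb4 (-3.08) and the muscle enzyme Fbp2 (-3.24) fell about as far.

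Genes of the cell cycle rose nearly as a block. Mki67, which encodes the proliferation marker Ki-67, had 780.0, 870.5 and 860.5 CPM in E7 ears, against 90.5, 84 and 128 CPM in C57 ears (log2 fold change 3.05 ± 0.16, adjusted p = 1.80e-06). All 30 members of the list of replication licensing and fork genes rose, with a median log2 fold change of 1.82, and 29 of 30 mitosis genes rose, with a median of 2.57. Mcm5, a subunit of the replicative helicase, had 200.1, 192 and 184 CPM in E7 ears, against 23.5, 32.7 and 30.6 CPM in C57 ears (2.73 ± 0.10; 2.43e-08). Gmnn, which restrains licensing, had 31.2, 35.7 and 30.8 CPM in E7 ears, against 4.72, 5.47 and 5.35 CPM in C57 ears, and Cenpe, a kinetochore motor, had 83.9, 93.4 and 99.1 CPM in E7 ears, against 9.19, 8.13 and 12.3 CPM in C57 ears. Every E7 library stood above every C57 library for these genes. Pttg1 (securin) was the mitosis gene that did not pass (0.01). Of 14 genes of DNA precursor synthesis 12 rose (median 0.80), led by Rrm2, the regulated subunit of ribonucleotide reductase (3.80), and 22 of 24 repair and checkpoint genes rose (median 1.49), among them Clspn (3.16) and Brca1 (2.55).

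Promoter windows of these genes were read from RefSeq sequence (250 bases before to 50 after the start, GRCm38.p6, both strands searched). The E2F motif, TTTCGCGC or TTTGGCGC, occurred in 9 of 24 replication genes with a window (37.5%), in 0.9% of all 27025 genes with one and in 1.6% of the 11880 of these that were tested. The cell cycle gene homology region (CHR), TTTGAA, occurred in 18 of 26 mitosis genes (69.2%), in 20.2% of all genes with a window and in 14.7% of those tested. The E2F motif was found for none of the 26 mitosis genes. Shown are the 2 most strongly raised genes of each list whose window holds the motif, in the gene's own direction with the motif in capitals. In Mcm5 a match on each strand overlaps, so the capitals run over both. A match is a description of the letters only.
Mcm5, chr8:75109259-75109558, plus strand: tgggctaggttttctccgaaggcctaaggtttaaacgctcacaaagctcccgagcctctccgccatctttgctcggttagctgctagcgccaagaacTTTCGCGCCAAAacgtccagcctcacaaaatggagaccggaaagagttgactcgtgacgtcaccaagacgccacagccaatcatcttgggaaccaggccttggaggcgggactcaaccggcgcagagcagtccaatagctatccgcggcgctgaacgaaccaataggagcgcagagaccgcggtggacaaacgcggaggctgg
Mcm3, chr1:20820263-20820562, minus strand: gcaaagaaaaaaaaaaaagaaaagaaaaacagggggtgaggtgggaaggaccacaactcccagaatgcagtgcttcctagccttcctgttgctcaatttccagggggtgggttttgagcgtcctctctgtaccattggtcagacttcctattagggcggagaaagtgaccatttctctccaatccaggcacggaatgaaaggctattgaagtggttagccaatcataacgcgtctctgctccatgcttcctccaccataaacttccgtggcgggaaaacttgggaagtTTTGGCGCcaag
Ndc80, chr17:71526808-71527107, minus strand: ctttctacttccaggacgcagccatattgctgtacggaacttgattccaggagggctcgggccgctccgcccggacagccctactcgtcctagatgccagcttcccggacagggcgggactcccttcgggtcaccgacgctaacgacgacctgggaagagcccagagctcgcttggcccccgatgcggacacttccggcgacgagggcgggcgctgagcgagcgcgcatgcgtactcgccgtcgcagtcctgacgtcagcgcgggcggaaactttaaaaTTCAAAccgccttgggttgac
Plk1, chr7:122159185-122159484, plus strand: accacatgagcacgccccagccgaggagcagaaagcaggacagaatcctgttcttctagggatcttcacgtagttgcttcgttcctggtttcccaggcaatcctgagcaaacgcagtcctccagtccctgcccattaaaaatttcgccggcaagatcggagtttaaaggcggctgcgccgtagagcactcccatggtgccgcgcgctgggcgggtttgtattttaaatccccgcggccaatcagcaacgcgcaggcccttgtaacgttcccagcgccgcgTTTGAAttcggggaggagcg

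Mcm3, another helicase subunit, had 159.8, 152 and 159 CPM in E7 ears, against 22.6, 28.3 and 28 CPM in C57 ears. Ndc80, of the outer kinetochore, had 34.5, 40.7 and 43.4 CPM in E7 ears, against 3.40, 3.95 and 5.69 CPM in C57 ears, and Plk1, a mitotic kinase, had 43.3, 49.8 and 52.2 CPM in E7 ears, against 4.64, 5.09 and 7.61 CPM in C57 ears. The groups did not overlap for any of the 4 genes whose windows are printed, and the log2 fold changes were 2.57 ± 0.08 for Mcm3, 3.17 ± 0.17 for Ndc80 and 3.05 ± 0.16 for Plk1.

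Regulators upstream of replication did not move as one. Of 20 genes for Rb proteins, E2F factors and CDK inhibitors 15 rose and 4 fell. Cdkn2a, which encodes the INK4a and ARF tumour suppressors, had 8.28, 8.89 and 6.53 CPM in E7 ears, against 0.166, 0 and 0.137 CPM in C57 ears, the largest change of the list (6.15 ± 0.39; 2.14e-07). E2f7 (3.42) and E2f8 (2.92), 2 of the repressor E2F genes, rose more than the activators E2f1 (1.62) and E2f3 (0.99). Other members of the E2F family did not all rise. Among the genes of the Rb family, Rbl1 (p107) rose by 2.09 and Rb1 by 0.83; E7 acts on these proteins, which RNA does not show. Cdkn1c, a CDK inhibitor of quiescent cells, fell (-1.45). Without C57-c, 2 of the list passed as fallen.

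Cyclins split by type. The E cyclin gene Ccne1 had 59.7, 64 and 59 CPM in E7 ears, against 2.49, 4.25 and 3.43 CPM in C57 ears (4.15 ± 0.13; 2.43e-09), and Ccne2 rose by 3.05. The D cyclin genes, whose products phosphorylate Rb with their kinases, went the other way: Ccnd1 had 52.1, 56.6 and 48.9 CPM in E7 ears, against 143, 148 and 150.3 CPM in C57 ears (-1.49 ± 0.07; 1.77e-08), Ccnd2 fell by 1.76 and Ccnd3 did not pass (-0.15; adjusted p = 0.00987 with upper-quartile scaling). Groups were apart for Ccne1 and for Ccnd1, in opposite directions. In the whole list of cyclins and CDKs 12 of 17 rose and 2 fell, the 2 being Ccnd1 and Ccnd2.

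Of 20 targets of p53, 13 rose and 2 fell (median 0.54), with Pmaip1, which encodes the death activator Noxa (3.25), and Gdf15, a stress cytokine (2.93), highest, Cdkn1a at 1.32, and Trp53 itself short of the threshold (0.14). Among 18 chromatin genes 11 rose and 3 fell. Those that rose highest maintain DNA methylation at the replication fork: Hells (2.52), Uhrf1 (2.27) and Dnmt1 (1.58). Tet1, which oxidises methylcytosine, fell by 1.50. Of 16 germline genes 5 were expressed enough to test. The meiotic cohesin gene Smc1b had 2.92, 5.14 and 4.71 CPM in E7 ears, against 0.331, 0.304 and 0.274 CPM in C57 ears. Its partner Stag3 had 17.8, 26.2 and 18.8 CPM in E7 ears, against 5.14, 5.16 and 7.33 CPM in C57 ears, and Syce2 of the synaptonemal complex had 16.3, 14 and 16.1 CPM in E7 ears, against 4.89, 3.57 and 4.04 CPM in C57 ears. The E7 libraries were above the C57 libraries in all 3 genes, at low levels. Tex15 rose too (1.28), while Sycp3 fell by 0.83 in a call that was lost without E7-a or E7-b or C57-a or C57-c.

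Keratins of the different layers moved unlike each other. Of 20 epidermal keratin genes tested 10 rose and 5 fell. Krt16, a keratin of wounded and hyperproliferative epidermis, had 1601, 613 and 1773 CPM in E7 ears, against 22.4, 20.9 and 28.4 CPM in C57 ears (5.79 ± 0.55; 6.17e-04). Its partners Krt6a and Krt6b rose by 2.99 and 3.99, though as near-identical copies they may share reads, and Krt17 rose by 2.24. Krt1, the first keratin of suprabasal cells, had 11278, 8628 and 12424 CPM in E7 ears, against 735, 919 and 909.7 CPM in C57 ears (3.66 ± 0.16), whereas its partner Krt10 had 24029, 23051 and 21696 CPM in E7 ears, against 13031, 12685 and 10319 CPM in C57 ears (0.93 ± 0.12). Both suprabasal genes were above the C57 range in every E7 library, Krt1 by far the more. The basal pair was less changed: Krt14 rose by 0.69 and Krt5 did not pass (0.04, with 6342, 5419 and 5848 CPM in E7 ears, against 5423, 5777 and 5903 CPM in C57 ears). Krt15, of basal cells and the follicle bulge, fell (458, 434 and 348 CPM in E7 ears, against 1686, 1891 and 1944 CPM in C57 ears; -2.15 ± 0.11), as did Krt24 (-1.96). The simple-epithelial genes Krt8 (-1.70) and Krt19 (-1.60) fell in the ear fit, but not in the fit of all 24 libraries.

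Genes of the cornified envelope held the largest group change. The 13 Sprr genes tested, of 15 matched, all rose, with a median log2 fold change of 5.98, and their summed level was 2012, 1387 and 2279.8 CPM in E7 ears, against 61.5, 74.9 and 44.3 CPM in C57 ears. Sprr1b, one of the small proline-rich proteins, had 555, 381 and 553 CPM in E7 ears, against 3.15, 2.89 and 4.52 CPM in C57 ears (7.12 ± 0.25; 1.09e-06). The lowest E7 sum was far above the highest C57 sum. The Sprr2 genes are near-identical copies, so reads may be split among them; Sprr4 rose by 2.42 and Sprr1a by 3.86.

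The Lce genes fell into classes. The 6 Lce3 genes rose by 4.40 to 7.04 on the log2 scale, although Lce3b had only 3 counts over the C57 group. Lce3e had 47.3, 29.6 and 65.4 CPM in E7 ears, against 0.249, 0.759 and 0.411 CPM in C57 ears, and Lce3c had 107, 75.4 and 114 CPM in E7 ears, against 4.14, 4.63 and 5.14 CPM in C57 ears. No C57 library reached an E7 library in either. The Lce1 genes moved less: Lce1f rose by 1.86, Lce1a1 by 0.80 and Lce1l did not pass (0.18). Lce1m had 142, 164 and 61.7 CPM in E7 ears, against 374, 392 and 418 CPM in C57 ears, which passed as a fall (-1.69 ± 0.38; 0.0148) but not without C57-b (0.0504) or C57-c (adjusted p = 0.0584). Sprr and Lce genes lie in the epidermal differentiation complex, here chr3:92215835-93019061 (GRCm38.p6), in which 31 of 33 tested members rose, and so did all 5 other tested genes between them.

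Of 23 genes of filaggrin processing and cornification 20 rose, 1 fell and the median was 1.03. Flg, the filaggrin precursor, had 1596, 2091 and 1887 CPM in E7 ears, against 175, 208 and 182 CPM in C57 ears (3.30 ± 0.12; 5.04e-09). Its fused relative Flg2 fell by 0.47. Rptn, repetin, had the largest rise (4.88), followed by Casp14, a protease of filaggrin breakdown (400.4, 455 and 428 CPM in E7 ears, against 47.3, 57.8 and 51.1 CPM in C57 ears; 3.04 ± 0.09), Padi1, a peptidylarginine deiminase (2.84), and Ivl, involucrin (2.31). Lor, loricrin, passed at 0.45 with all 6 libraries (0.0407) and failed without any 1 of C57-a, C57-b, C57-c or E7-a, E7-b, with upper-quartile scaling and in the fit of all 24 libraries. Ppl, periplakin, and Scel, sciellin, did not pass (0.09 and 0.08).

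**Figure D2:**
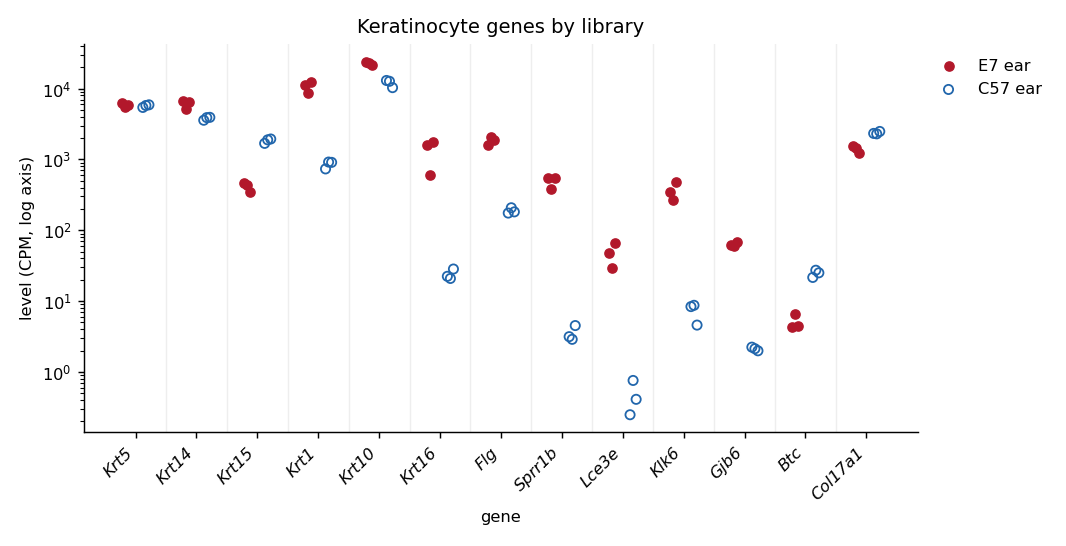
Level (CPM, log axis) of 13 keratinocyte genes in each ear library, E7 (left, filled) beside C57 (right, open), 1 point per library. Krt16, Sprr1b, Lce3e and Gjb6 lie far above their C57 values, Krt5 overlaps, and Krt15 and Col17a1 lie below.

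Proteases of shedding and their inhibitors rose together. All 14 genes tested of the kallikrein and Spink list rose (5 more were too low to test), with a median of 1.91. Klk6 had 342, 268 and 487 CPM in E7 ears, against 8.37, 8.73 and 4.59 CPM in C57 ears (5.68 ± 0.37), and Klk13 rose by 5.04, while Klk5 and Klk7, which cleave corneodesmosomes, rose by 1.73 and 1.86 and their inhibitor Spink5 by 0.63. The 10 kallikrein members, 9 of them tested, lie at chr7:43680880-43851181 beside 1 other tested gene, which passed in neither direction. Among stefins and serpins 12 of 16 rose and 3 fell. The stefin cluster at chr16:36119946-36455392 gave 6 of the rises, Stfa1 (6.58) and Cstdc5 (6.75) among them, again with copies that may share reads. Slpi, a secreted inhibitor of leukocyte proteases, had 56.4, 62.1 and 77.7 CPM in E7 ears, against 1.74, 2.51 and 2.33 CPM in C57 ears (4.88 ± 0.17). The E7 libraries of Klk6 and Slpi stood wholly above the C57 libraries. The 3 falls were serpins, Serpinb7, Serpinb12 and Serpinb3b, none of which passed in the fit of all 24 libraries; that of Serpinb3b was also lost without C57-a or C57-c or E7-a. Of 8 gasdermin genes 6 rose, and the C group rose most: Gsdmc had 258, 131 and 398 CPM in E7 ears, against 12.5, 6.30 and 7.40 CPM in C57 ears (4.92 ± 0.61). Gsdmc3 had 3.41, 1.88 and 11.2 CPM in E7 ears, against 0, 0 and 0.0685 CPM in C57 ears with 1 count over the C57 group, and its call was lost without C57-c (adjusted p = 0.0882). Gsdme fell (-0.96).

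Junction genes rose by less, 21 of 25 with a median of 0.58 and no falls. The largest rises were the connexin genes Gjb6 (61.9, 60.9 and 68.8 CPM in E7 ears, against 2.24, 2.13 and 1.99 CPM in C57 ears; 4.91 ± 0.11) and Gjb2 (3.30), then Dsc1, a desmocollin of the upper layers (1.98), and Cldn4, a claudin (1.92). Of 25 genes of barrier lipid synthesis 22 rose and 1 fell (median 1.00). Degs2, which makes phytoceramide, had 25.8, 27.7 and 31.7 CPM in E7 ears, against 4.64, 4.48 and 3.36 CPM in C57 ears (2.78 ± 0.14). Cers3 and Elovl4, for ultra-long-chain ceramides, rose by 1.90 and 1.32, Alox12b by 1.36 and the lamellar body transporter Abca12 by 1.63. Basement membrane and hemidesmosome genes went the opposite way, with 18 of 20 fallen, none risen and a median of -0.84. Col17a1, of the hemidesmosome, had 1559.7, 1452 and 1232 CPM in E7 ears, against 2332, 2298 and 2485 CPM in C57 ears (-0.75 ± 0.10). Col7a1, of anchoring fibrils (-1.32), Lamb3 (-0.83) and Itgb4 (-0.68) also fell, while Itga6 did not pass (-0.02; adjusted p = 0.0468 with upper-quartile scaling). In the leave-one-out fit without E7-b, 1 gene of this list passed as risen.

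Growth factor genes of the EGF receptor also differed in direction. Areg, amphiregulin, had 12.7, 13.1 and 15.7 CPM in E7 ears, against 0, 0 and 0.411 CPM in C57 ears (6.43 ± 0.44; 1.45e-06). All C57 counts of Areg were in C57-c, and without it the C57 group stood at 0 (fitted change 10.28, which depends on the prior count). Epgn, epigen, had 30.5, 28.8 and 36.3 CPM in E7 ears, against 0.746, 1.06 and 0.685 CPM in C57 ears (5.25 ± 0.18), and Ereg and Hbegf rose by 2.97 and 2.35. Btc, betacellulin, had 4.38, 6.62 and 4.42 CPM in E7 ears, against 21.6, 27.3 and 25.1 CPM in C57 ears (-2.26 ± 0.16) and Egf fell by 1.10. The E7 libraries of Areg and Epgn were all higher, and those of Btc all lower, than any C57 library. The receptor genes changed little, Egfr at 0.20 and Erbb2 at 0.30; the rise of Egfr was lost without E7-c and with upper-quartile scaling (0.289). Of 21 genes of the immediate early and heat shock list, 14 rose and 1 fell. A link of these changes to the receptor was not tested. Arc had 109, 98.3 and 111 CPM in E7 ears, against 1.74, 3.57 and 2.67 CPM in C57 ears (5.30 ± 0.15; 3.81e-09). Fosl1, an AP-1 subunit of wounded and transformed keratinocytes, had 6.33, 7.41 and 7.49 CPM in E7 ears, against 0.580, 0.304 and 0.480 CPM in C57 ears (3.94 ± 0.25), Atf3 rose by 2.75 and Junb by 1.88. Fos did not pass (0.92), and its C57 libraries varied widely (62.7 ± 8.01 CPM in E7 ears and 32.5 ± 35.3 CPM in C57 ears, SD).

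Of 24 fate regulators 15 rose and 5 fell (median 0.35). The rises were factors of terminal differentiation, such as Prdm1 (1.75), Ovol1 (1.69) and Grhl3 (1.02), and smaller for Trp63, the p63 gene (0.33). Notch1 did not pass (0.09), and the Notch ligand Jag2 (-0.76) and target Hey1 (-1.20) fell. Follicle regulators mostly fell, 15 of 24 with a median of -0.77, among them Lef1, a WNT effector (1.17, 1.09 and 1.82 CPM in E7 ears, against 3.98, 3.42 and 2.67 CPM in C57 ears; -1.28 ± 0.27), the hedgehog target Gli1 (-1.27), the stem cell marker Cd34 (-1.51) and Lgr6 (-1.21). Foxn1, of hair and keratinocyte differentiation, rose (0.86). Hair shaft and inner sheath genes were uneven: 9 of 25 could be tested, and the summed level of the list was 20.6, 42.2 and 60.5 CPM in E7 ears, against 37.8, 33.3 and 30 CPM in C57 ears. Their count of rises was 5, and 10 without C57-a or 11 without E7-a. The filter was set anew in those fits and let in more genes of the list, so these counts do not compare the same genes. Of 22 WNT genes 13 fell and 7 rose, and 4 rose without C57-a or with upper-quartile scaling; Wif1 (-2.22) and Wnt10b (-1.83) fell furthest. Of 20 TGF-beta and BMP genes 12 fell and 1 rose, with Tgfb2 at -1.47, Tgfb3 at -1.56 and their target Ccn2 at -1.52. The median of the sebaceous list was 0.13 (-0.03 with library totals alone), and 6 of 19 rose, against 11 without C57-b.

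Genes of the tissues beneath the epidermis fell. In bulk RNA, fewer cells of a type and less RNA per cell cannot be told apart, and a larger share of epidermis in the sample cannot be told apart from either. The same limit holds for the falls in the basement membrane, follicle, WNT, TGF-beta and BMP lists above. It also holds for the falls in the complement and mast cell lists below. Smaller rises of epidermal genes, such as the junction and barrier lipid lists, Krt10 and Krt14, cannot be told apart from a larger share of epidermis. All 17 cartilage genes tested fell (median -1.98), as did 23 of 24 skeletal muscle genes (-1.57), 14 of 16 adipocyte genes (-1.57), 16 of 18 Schwann cell genes (-1.54), 9 of 10 melanocyte genes (-1.33), 10 of 11 pericyte genes (-1.33), 23 of 26 genes of the dermal matrix (-1.39) and 20 of 24 endothelial genes (-0.81). Comp, a cartilage matrix protein, had 17, 19.6 and 20.5 CPM in E7 ears, against 101, 90.9 and 74.9 CPM in C57 ears (-2.22 ± 0.12), and Col2a1, the defining collagen, had 13.2, 12.2 and 13.9 CPM in E7 ears, against 42.4, 35.9 and 54.5 CPM in C57 ears (-1.76 ± 0.16; adjusted p = 0.169 in the fit of all 24 libraries). Actn3, of fast muscle fibres, had 22.6, 14.2 and 10.3 CPM in E7 ears, against 105, 83.6 and 129 CPM in C57 ears (-2.76 ± 0.32). E7 libraries were below C57 libraries in these 3. Adipoq, adiponectin (-1.87), Mlana, a melanosome protein (-1.63), and Cdh5, the cadherin of endothelium (-1.47), fell as well.

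The dermal matrix list had summed levels of 5598, 8717 and 7183 CPM in E7 ears, against 15450.4, 15505 and 16929 CPM in C57 ears. Col1a1, the main dermal collagen, had 329, 859 and 525 CPM in E7 ears, against 1345, 1528 and 1590.1 CPM in C57 ears, and its groups did not overlap. Its call (-1.38 ± 0.37; 0.0224) was lost without C57-b or C57-c or E7-c, with adjusted p-values of 0.0684, 0.0877 and 0.0763 at nearly the same size. Bgn, biglycan, had 153, 243 and 183 CPM in E7 ears, against 609, 627 and 630.5 CPM in C57 ears (-1.69 ± 0.16), and Fmod, fibromodulin, fell by 1.91. Tnc, tenascin C, a matrix protein of wounds, rose (251 ± 33.2 CPM in E7 ears and 93.1 ± 20.7 CPM in C57 ears, SD, n = 3 each; 1.43 ± 0.18), and Postn, periostin, did not pass (0.06). Among 15 matrix proteases and their inhibitors 3 rose and 9 fell. Mmp13, a collagenase, had 7.70, 4.05 and 7.01 CPM in E7 ears, against 0.828, 0.152 and 0.823 CPM in C57 ears (3.35). Mmp12, the macrophage elastase, had 18, 16.9 and 31.2 CPM in E7 ears, against 3.06, 2.89 and 2.47 CPM in C57 ears (2.98). Both rose, with the groups apart. The tissue inhibitors Timp2 (-1.49), Timp3 (-1.83) and Timp4 (-1.94) fell.

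**Figure D3:**
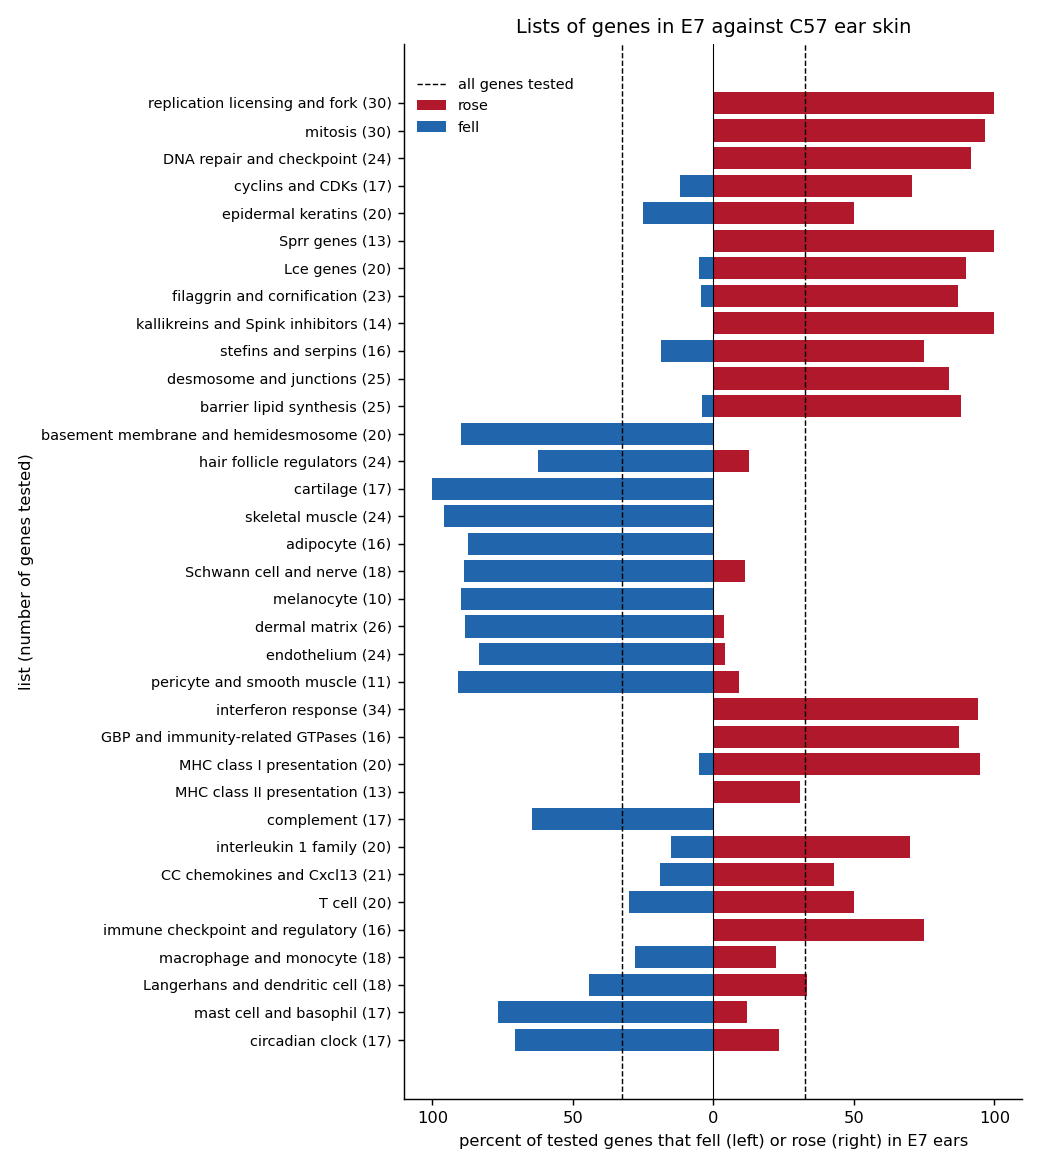
Share of each list's tested genes that rose (right, red) or fell (left, blue) in E7 ears at an adjusted p under 0.05; the number tested stands beside each name. Dashed lines mark the shares over all 15720 genes, 32.6% risen and 32.7% fallen, and the lists from basement membrane to pericyte lie mostly on the side of falls.

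Interferon genes rose, 32 of 34 with none fallen and a median of 1.92. Isg15, a ubiquitin-like protein, had 47.1, 43.6 and 35.5 CPM in E7 ears, against 2.40, 4.18 and 2.81 CPM in C57 ears (3.74 ± 0.18; 7.34e-08). Oas3, an antiviral oligoadenylate synthetase, had 38.3, 36 and 30.9 CPM in E7 ears, against 1.82, 1.82 and 0.960 CPM in C57 ears (4.53 ± 0.18), and Cxcl10, a chemokine for T cells, had 36.9, 32 and 36.7 CPM in E7 ears, against 0.994, 1.67 and 1.23 CPM in C57 ears (4.74 ± 0.16). The ranges of the groups were apart for these 3. Mx1 (2.52) and Irf7 (2.44) rose by less. The interferon-stimulated response element, GAAA repeated after any pair of bases, occurred in 13 of 23 interferon genes with a promoter window (56.5%), in 4.0% of all genes with one and in 3.8% of those tested. Shown as before are the most strongly raised genes with a match.
Cxcl10, chr5:92348840-92349139, minus strand: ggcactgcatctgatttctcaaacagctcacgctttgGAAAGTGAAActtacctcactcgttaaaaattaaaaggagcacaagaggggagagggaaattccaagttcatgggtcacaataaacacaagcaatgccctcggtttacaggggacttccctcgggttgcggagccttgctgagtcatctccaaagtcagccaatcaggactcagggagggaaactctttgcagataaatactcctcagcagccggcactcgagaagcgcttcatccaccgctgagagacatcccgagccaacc
Oas3, chr5:120777610-120777909, minus strand: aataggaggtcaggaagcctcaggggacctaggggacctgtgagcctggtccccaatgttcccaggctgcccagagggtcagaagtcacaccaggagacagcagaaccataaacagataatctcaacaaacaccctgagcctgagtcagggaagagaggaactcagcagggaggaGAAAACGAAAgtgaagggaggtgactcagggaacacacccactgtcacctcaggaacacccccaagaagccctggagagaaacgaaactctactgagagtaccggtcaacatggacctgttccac

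Genes induced by interferon gamma followed, with 14 of 16 of the guanylate-binding and immunity-related GTPases risen (median 1.07; 9 in the fit of all 24 libraries), Iigp1 (1.89) and Gbp2 (1.60) among them. Of 20 genes of MHC class I presentation 19 rose (median 0.93). B2m, the shared light chain, had 1231, 1030.1 and 1331 CPM in E7 ears, against 538, 476 and 467 CPM in C57 ears (1.28 ± 0.10), Tap1, the peptide transporter, rose by 1.47, and Psmb9, of the immunoproteasome, by 1.89; Cd1d1 fell (-0.60; adjusted p = 0.0702 in the fit of all 24 libraries). MHC class II genes had a median of 0.11, and -0.01 with upper-quartile scaling. H2-Ab1 had 366, 374 and 422 CPM in E7 ears, against 374, 372 and 393 CPM in C57 ears, with groups that overlapped (0.03 ± 0.07; 0.739), and Cd74 did not pass either (0.988). Only the costimulatory genes Cd80 (1.86) and Cd40 (0.95), the regulator Ciita (0.72) and H2-DMb2 rose among 13, the last of these not without C57-a or E7-c, with upper-quartile scaling or in the fit of all 24 libraries. Complement genes held 11 falls and no rise among 17 (3 falls in the fit of all 24 libraries, and 1 rise without E7-a), with Cd59a, a complement inhibitor, lowest (-1.62).

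Cytokine genes of keratinocytes and myeloid cells were among the large changes. Ccl20, the ligand of Ccr6, had 93.8, 109.8 and 118 CPM in E7 ears, against 0.414, 0.380 and 1.37 CPM in C57 ears (7.14 ± 0.26; 3.03e-07; 8.04 without C57-c). Il23a, a subunit of interleukin 23, had 11.3, 12.9 and 18.1 CPM in E7 ears, against 0.0828, 0.152 and 0.274 CPM in C57 ears (6.25 ± 0.34), and Il17c, an epithelial cytokine, had 1.75, 1.58 and 3.26 CPM in E7 ears, against 0.0828, 0 and 0.0685 CPM in C57 ears, with 2 counts over the C57 group. For all 3 genes the C57 libraries stood below the E7 range. Of 21 genes of the IL-17, IL-20 and IL-6 families that could be tested 11 rose and 5 fell, while 9 were too low to test. Among those were Il17a with 2 counts over the E7 group and 0 over the C57 group, Il17f with 20 and 7, and Il22 with 10 and 1.

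Of the interleukin 1 family 14 of 20 genes rose and 3 fell. Il1b had 22.8, 6.13 and 16.6 CPM in E7 ears, against 0.828, 0.911 and 1.23 CPM in C57 ears (3.91 ± 0.63), and Il1f6, an IL-36 gene, had 99.7, 101 and 127 CPM in E7 ears, against 6.05, 6.99 and 5.62 CPM in C57 ears (4.14 ± 0.13). Il1f10 fell (-2.06), and Il33 did not pass (-0.73; adjusted p = 0.0346 with upper-quartile scaling and 0.0286 with DESeq2). Among CC chemokines and Cxcl13, 9 of 21 rose and 4 fell. Ccl17 (2.79) and Ccl22 (2.28), ligands of Ccr4, rose with Cxcl13, a B cell chemokine (4.09, 5.24 and 3.84 CPM in E7 ears, against 0.166, 0.304 and 0.137 CPM in C57 ears; 4.38 ± 0.34). Cxcl12, made by dermal cells, and Ccl21a, of lymphatic vessels, fell (-1.03 and -0.81). Tnf, which is in no list and was chosen after its values were seen, had 20.2, 19.6 and 22.5 CPM in E7 ears, against 2.07, 2.35 and 3.91 CPM in C57 ears (2.87 ± 0.19). Of 15 genes of the type 2 axis tested 11 rose (7 with library totals alone) and 2 fell. Tslp, an alarm cytokine of keratinocytes, rose by 1.71 and Il13ra2 by 1.98.

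Neutrophil chemokines rose, and genes found in neutrophils differed from each other. Cxcr2 and Csf3r rose, while Ly6g, Mpo and Elane stayed near 0. Cxcl1 had 4.77, 6.82 and 9.60 CPM in E7 ears, against 0.249, 0.0759 and 0.960 CPM in C57 ears (3.94 ± 0.54), and Cxcl2 had 10.2, 4.35 and 7.49 CPM in E7 ears, against 0.166, 0.0759 and 0.480 CPM in C57 ears (4.82 ± 0.51); without C57-c their changes were 5.38 and 5.82. Csf2, a growth factor of myeloid cells, had 15.8, 13.6 and 19.9 CPM in E7 ears, against 0.331, 0.380 and 0.206 CPM in C57 ears (5.72 ± 0.27). S100a8, made by neutrophils and by stressed keratinocytes, had 64.5, 29.9 and 118 CPM in E7 ears, against 4.06, 0.987 and 1.30 CPM in C57 ears (5.11 ± 0.86; 0.00569), with the highest E7 value in E7-c; the change was 4.52 without that library and 5.93 without C57-a. The groups did not overlap. Cxcr2, a receptor on neutrophils, rose (33, 22.4 and 37.4 CPM in E7 ears, against 3.15, 1.67 and 2.47 CPM in C57 ears; 3.67 ± 0.26), and Csf3r by 1.99. Of the list's 21 genes 10 could be tested, of which 9 rose and 1 fell (median 3.81), and 11 were too low to test. Over the E7 and the C57 group, Ly6g had 3 and 1 counts, and the granule genes Mpo and Elane had 13 and 2 counts and 1 and 0 counts. Defb3, a beta-defensin (2.83, 1.68 and 6.24 CPM in E7 ears, against 0.0828, 0.152 and 0.137 CPM in C57 ears; 4.73 ± 0.72; 4.06 without E7-c), and Lcn2, lipocalin 2 (2.20), rose in the antimicrobial list, in which 12 of 23 rose and 6 fell. The oxidase genes Duox1 and Duox2, whose products make the hydrogen peroxide used by lactoperoxidase, were at -0.49 and -0.79. Duoxa1 was at -0.81. The call of Duox2 was lost without E7-a or E7-c, and that of Duox1 in the fit of all 24 libraries.

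T cell genes did not move together. Of 20 tested 10 rose and 6 fell. Cd8a, of cytotoxic T cells, had 1.17, 1.88 and 3.07 CPM in E7 ears, against 0.249, 0.0759 and 0.137 CPM in C57 ears (3.67 ± 0.54; 1.24e-04), and Trac, the constant region of the alpha chain of the T cell receptor, had 4.68, 5.53 and 7.59 CPM in E7 ears, against 1.41, 1.06 and 1.03 CPM in C57 ears (2.35 ± 0.26). Cd6 and Cd5, of conventional T cells, rose by 2.82 and 1.40. Trdc, the constant region of the delta chain, had 7.11, 6.72 and 7.97 CPM in E7 ears, against 19.3, 17.6 and 22.3 CPM in C57 ears (-1.44 ± 0.13; 3.11e-06), and Trgc1, of the gamma chain, had 3.31, 2.67 and 3.94 CPM in E7 ears, against 7.04, 7.22 and 8.57 CPM in C57 ears (-1.20 ± 0.18). For each of these genes the E7 and C57 libraries did not overlap, above for the alpha chain and Cd8a and below for gamma and delta. The shared signalling genes fell or did not pass: Cd3e had 5.07, 4.74 and 6.91 CPM in E7 ears, against 7.62, 9.04 and 10.6 CPM in C57 ears (-0.71 ± 0.18; 0.00540), Cd3g was at -0.62, Cd247 at -0.98 and Cd3d at -0.08. In the fit of all 24 libraries Cd3e (adjusted p = 0.0534) and Cd3g (0.0812) did not pass. The rise of Cd4 (0.75) was lost without C57-b or C57-c or E7-b or E7-c, with upper-quartile scaling and in the fit of all 24 libraries.

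Genes of regulatory T cells and of immune checkpoints rose, 12 of 16 with no fall and a median of 1.39; 4 more were too low to test, and 1 gene passed as fallen without C57-a and without E7-c. Foxp3, the factor that defines regulatory T cells, had 8.18, 7.71 and 9.03 CPM in E7 ears, against 0.580, 1.67 and 1.23 CPM in C57 ears (2.81 ± 0.26; 3.68e-06). Ctla4 had 7.40, 10.9 and 11.8 CPM in E7 ears, against 1.41, 1.06 and 1.65 CPM in C57 ears (2.85 ± 0.24), and Icos and Tigit rose by 2.88 and 2.85. Il10 had 1.17, 1.38 and 1.92 CPM in E7 ears, against 0.331, 0.304 and 0 CPM in C57 ears (2.83 ± 0.56; 2.19 without C57-c), and Il2ra, the alpha chain of the interleukin 2 receptor, rose by 2.05. All E7 libraries exceeded the C57 libraries in Foxp3, Ctla4 and Il10. The checkpoint genes Lag3 and Havcr2 did not pass (0.11 and 0.19), and the ligand genes Pdcd1lg2 and Cd274 rose (2.41 and 0.98). Cytotoxic genes differed from each other: Gzmb, granzyme B, had 3.60, 3.95 and 6.82 CPM in E7 ears, against 0.166, 0.532 and 0.480 CPM in C57 ears (3.55 ± 0.40) and Gzmc rose by 1.87, while Prf1, perforin, had 2.05, 0.988 and 0.864 CPM in E7 ears, against 4.31, 3.04 and 3.50 CPM in C57 ears (-1.46 ± 0.31) and Nkg7 fell by 1.10. The group ranges of Gzmb and Prf1 were apart, in opposite directions. Of 17 genes of that list 8 could be tested. Of these, 3 rose (37.5%) and 3 fell (37.5%), close to the shares of all genes tested (32.6% and 32.7%).

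Ligands read by gamma-delta and natural killer cells mostly rose where they changed. Ulbp1, a ligand of the receptor NKG2D, had 18.5, 28.1 and 25.8 CPM in E7 ears, against 0.166, 0.152 and 1.17 CPM in C57 ears (5.49 ± 0.45; 7.15 without C57-c), and H60c, an NKG2D ligand of skin, had 91.1, 97.1 and 103 CPM in E7 ears, against 43.9, 51.2 and 51.3 CPM in C57 ears (0.99 ± 0.08). Skint1, needed in thymus for dendritic epidermal T cells, rose by 1.25 and Skint2 by 1.57. Of the Skint and dendritic epidermal T cell list 8 of 15 rose and 1 fell, Skint5, whose fall was lost without C57-a or C57-b or E7-a or E7-c and in the fit of all 24 libraries. The Skint genes are close copies at chr4:111919555-114245028.

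**Figure D4:**
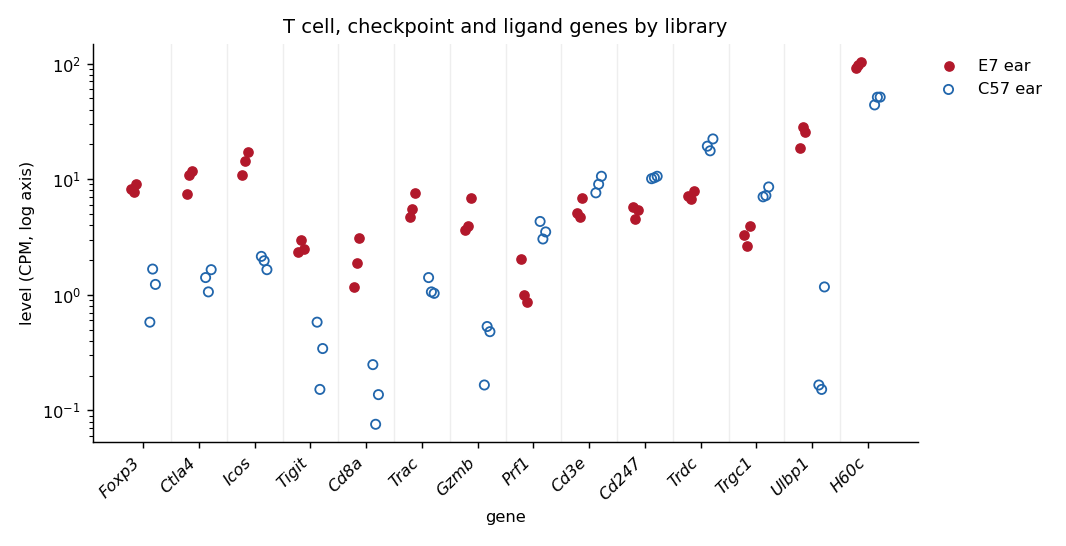
Level (CPM, log axis) of 14 genes of T cells, checkpoints and T cell ligands in each ear library, E7 (left, filled) beside C57 (right, open), 1 point per library. Foxp3, Ctla4, Icos, Cd8a, Trac and Gzmb lie above their C57 values, and Trdc, Trgc1, Cd247 and Prf1 lie below theirs.

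Macrophage, monocyte, Langerhans and dendritic cell genes gave no common direction. Of 18 macrophage and monocyte genes 4 rose (22.2%) and 5 fell (27.8%), both under the shares of all genes tested (32.6% and 32.7%). With upper-quartile scaling 8 fell. Adgre1, which encodes F4/80, did not pass (13.7, 23.1 and 23.9 CPM in E7 ears, against 27, 29.1 and 24.5 CPM in C57 ears; adjusted p = 0.0964) although its E7 libraries lay below the C57 libraries; with upper-quartile scaling it was 0.0442. Mertk (-1.30) and Marco (-2.16), of tissue macrophages, fell, while Fcgr1 (1.04) and Ccr2 (0.66), of monocytes, rose. Of 18 Langerhans and dendritic cell genes 6 rose (33.3%) and 8 fell (44.4%). Cd207, langerin, had 23.1, 18.3 and 20.8 CPM in E7 ears, against 22.8, 22.8 and 26.3 CPM in C57 ears and did not pass (-0.21 ± 0.11; 0.112), but did with upper-quartile scaling (-0.33; 0.0185). Ccr7, of migrating dendritic cells, had 5.85, 6.72 and 4.90 CPM in E7 ears, against 1.16, 0.759 and 0.960 CPM in C57 ears (2.59 ± 0.24), and Siglech, of plasmacytoid dendritic cells, fell by 1.24. The E7 range of Ccr7 was above the C57 range. Mast cell genes fell, 13 of 17 with a median of -1.19. Mcpt4, a connective tissue mast cell protease, had 33, 46.8 and 42.6 CPM in E7 ears, against 103, 105 and 101 CPM in C57 ears (-1.33 ± 0.11), Cpa3 had 25.1, 46.9 and 35.7 CPM in E7 ears, against 90.3, 96 and 78.8 CPM in C57 ears (-1.30 ± 0.22) and Mrgprb2, a receptor of mast cells, was at -1.90. All E7 libraries were below the C57 libraries in these genes. Fcer1a, which basophils also express, rose (1.66). Haemoglobin and other erythroid genes tested, 5 in all, fell by 0.54 to 0.77, and none passed in the fit of all 24 libraries.

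Lipid mediators, metabolism and the clock held further differences. Of 25 prostaglandin and leukotriene genes 12 rose and 5 fell. Alox8, a lipoxygenase of irritated mouse skin, had 73.6, 45 and 183 CPM in E7 ears, against 4.22, 1.75 and 3.43 CPM in C57 ears (5.01 ± 0.83; 4.24 without E7-c), Ptgs2, the inducible cyclooxygenase, had 10.7, 7.21 and 7.49 CPM in E7 ears, against 1.33, 2.13 and 2.95 CPM in C57 ears (1.96 ± 0.26), and Ptgds fell by 1.81. The E7 values of Alox8 and Ptgs2 were above all C57 values. In retinoid metabolism 6 of 20 rose (30%) and 6 fell (30%), close to the shares of all genes tested (32.6% and 32.7%). Dhrs9, which oxidises retinol, had 25.3, 28.7 and 39 CPM in E7 ears, against 1.57, 2.13 and 2.19 CPM in C57 ears (3.96 ± 0.21). Aldh1a3, which makes retinoic acid, had 32.5, 20.9 and 48.5 CPM in E7 ears, against 4.64, 5.47 and 3.08 CPM in C57 ears (2.96 ± 0.40). Both rose in every E7 library beyond the C57 range, while Rbp4 (-2.31), Aldh1a1 (-1.55) and Cyp26a1, which breaks retinoic acid down (-1.45), fell. Slc7a11, the cystine transporter, rose by 3.29 among 10 rises and 4 falls of 20 genes of oxidative stress, in which Nqo1 did not pass (0.09). Of 21 hypoxia and glycolysis genes 14 rose and 2 fell (median 0.59), with Egln3 at 2.65 and Eno1 at 1.08. Gapdh, a gene with many processed copies in the genome, stood at only 2.83, 1.58 and 3.94 CPM in E7 ears, against 2.15, 1.97 and 2.47 CPM in C57 ears, so levels of genes with such copies may be understated. Nuclear genes of the respiratory chain had a median of 0.03, with 4 rises (7 without C57-c) and 2 falls among 19 (median -0.09 and 8 falls with upper-quartile scaling), and 11 of 13 mitochondrially encoded genes fell (median -0.38).

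Of 17 clock genes 12 fell and 4 rose (median -0.62). Per2 had 13.7, 18.2 and 19.7 CPM in E7 ears, against 41.6, 59.8 and 52.8 CPM in C57 ears (-1.58 ± 0.17), and Dbp, an output of the clock, had 35.8, 58.8 and 41.3 CPM in E7 ears, against 107, 126 and 109 CPM in C57 ears (-1.33 ± 0.19). Arntl, which peaks in the opposite phase, had 67, 61.2 and 52.2 CPM in E7 ears, against 45.5, 36.5 and 38.2 CPM in C57 ears (0.59 ± 0.11), and Cry1 rose by 0.56. The E7 libraries were below the C57 libraries for Per2 and Dbp and above them for Arntl. The sources used here do not give the time of day of collection, so a difference in collection time and a difference in the clock cannot be told apart.

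The change in ear was set against the change in grafted skin in 1 fit of all 24 libraries, as the E7 effect in ear minus the mean E7 effect in grafts at 14 and 28 days. Ear and graft libraries were sequenced on other flow cells, but each E7 effect lies within 1 tissue. Of 16612 genes 2443 differed (14.7%), 1579 with a more positive effect in ear (9.51%) and 864 with a more negative one (5.2%). Without E7-c, 1497 differed (1049 more positive, 448 more negative), and without C57-c, 1549 (484 more negative). Without C57-a, 553 were more negative, and against the 28-day grafts alone 1234 differed. Upper-quartile scaling gave 1018 more positive and 1363 more negative. Of 30 mitosis genes 28 had a more positive effect in ear (median 2.57 in ear, 1.18 in grafts), against 9 of 30 replication genes (1.82 and 1.48). Mki67 changed by 3.05 ± 0.18 in ear and 1.44 ± 0.12 in grafts (log2, SE), a difference of 1.61 ± 0.20 (adjusted p = 3.47e-05). Mcm5 changed by 2.73 ± 0.15 in ear and 2.30 ± 0.11 in grafts, and the difference did not pass (0.42 ± 0.18; 0.118), though it did against the 14-day grafts alone (0.78; adjusted p = 0.0163).

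Cdkn2a had the widest gap of the 12 panel genes, 6.11 ± 0.52 in ear and 1.17 ± 0.27 in grafts (difference 4.94 ± 0.64; adjusted p = 4.11e-05). Flg (3.30 in ear, 1.09 in grafts; 4.19e-05), Krt16 (5.80 and 3.89; 0.00586), Lpo (7.37 and 4.90; 0.0233) and S100a8 (5.10 and 1.58; 0.0387) also had more positive effects in ear. Against the 28-day grafts alone the difference of Krt16 was -0.03 (adjusted p = 0.982) and that of Lpo 0.73 (0.693), while against the 14-day grafts they were 3.85 (5.19e-05) and 4.19 (1.22e-04). The call of Lpo was lost without C57-a (0.0545) or C57-b (adjusted p = 0.0521). That of S100a8 was lost without C57-b or C57-c or E7-a or E7-c (adjusted p = 0.0613 to 0.111), against the 28-day grafts alone (0.144) and with a replicate block among the grafts (0.0595). In the list of neutrophil chemokines and neutrophil genes 11 of 15 were more positive in ear, and 8 of 14 Sprr genes. For Isg15 the difference was 0.72 ± 0.43 (0.287), for Arc 1.51 ± 0.64 (0.128), for Col1a1 -0.40 ± 0.35 (0.478), for Cd3e -0.20 ± 0.40 (0.776) and for Cd207 0.12 ± 0.25 (0.794), none past the threshold, which does not show that the effects are alike. Of 35 interferon genes in this fit 5 were more positive in ear and 2 more negative, and of 18 mast cell genes 7 were more negative in ear.

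**Figure D5:**
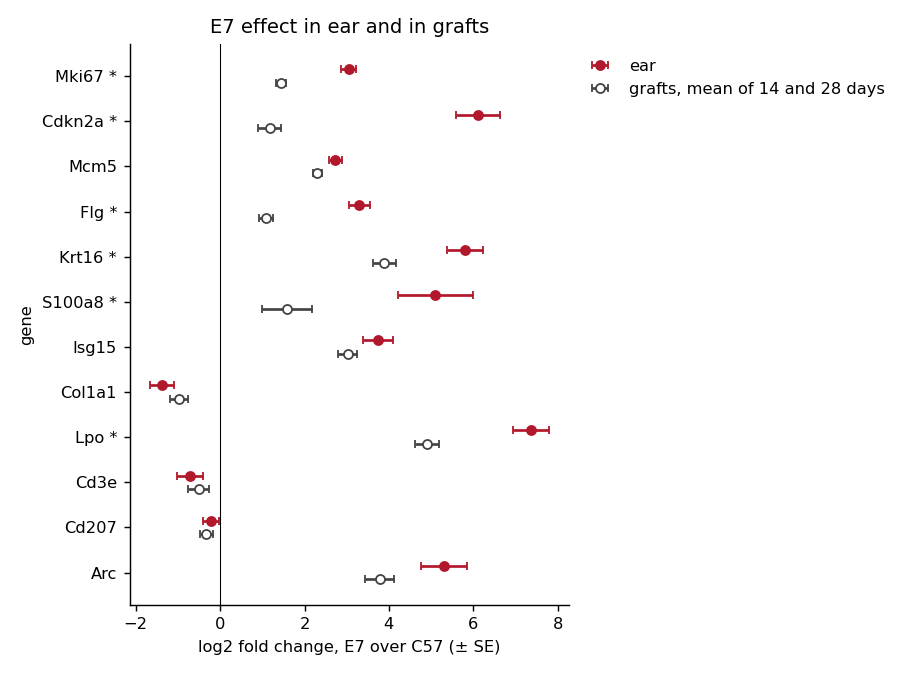
E7 effect (log2 fold change over C57, ± SE) in ear (filled, upper point of each pair) and in grafts (open, lower point, mean of 14 and 28 days) for 12 panel genes in 1 fit of 24 libraries. Mki67, Cdkn2a, Flg, Krt16, S100a8 and Lpo differ past an adjusted p of 0.05 and are marked with a star; the effects in ear lie to the right for these 6.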

How the data were processed

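Read counts per Entrez gene were those deposited by the authors, whole numbers with 1 file per library. Per the labels' protocols, RNA came from snap-frozen whole ears and grafts with Trizol and RNeasy columns, and libraries were made with the TruSeq RNA v2 kit, which does not mark strand, so overlapping and antisense genes cannot be told apart. Per the submitters' processing notes, reads were handled with bcl2fastq 1.8.4 (ear), FastQC (grafts) and Trimmomatic and placed on mm10. The aligner, counting program and annotation are not given in the sources used here, nor is the treatment of reads that match several genes.

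Of 27180 gene identifiers 25275 matched RefSeq, from which symbols, positions and promoter windows (GRCm38.p6) were taken, and 1904 did not, beside the E7 transgene. Unmatched identifiers held 0.826% to 1.556% of a library's counts and stayed in the tests. The 6 ear libraries were fitted alone with edgeR 4.0.16 in R 4.3.3 (limma 3.58.1): genes were kept by filterByExpr (10 counts, 15 in total), scaled by TMM, tested with a robust quasi-likelihood fit and F test, and adjusted by Benjamini-Hochberg over 15720 genes, with a threshold of 0.05 and no fold limit. The biological coefficient of variation was 0.0845. SE is the log2 fold change over the square root of F. "Rose" and "fell" mean past the threshold. The ear-minus-graft difference was a contrast in 1 fit of all 24 libraries (16612 genes, coefficient 0.135), whose totals were 6550011 to 13814448 counts. Where a group had 0 counts a fold was set against a floor of 3 counts over the group; with 1 to 3 counts over a group's 3 libraries levels are given with no fold, except Lce3b within its family's range. Changes given without 1 library rest on 3 or fewer counts in the lower group for Areg, Cstdc6, Cxcl2, Krt73 and Rab3b and depend there on the prior count. Floors cover counting error only, and reads carried no molecular identifiers. The fit was also run on simulated counts in which few genes changed, equally up and down, with a common spread. Most genes passed in the ear data, so that run does not bear on how these calls depend on the scaling.

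Lists follow cell types and pathways of skin, 1273 of whose 1301 symbols matched; the members and the lists were chosen with earlier results of these data known, so they carry no set test. Named were the transgene, 12 panel genes, list members by role, and genes among the 12 largest rises and 12 largest falls that reached 1 CPM in either group and did not overlap; other genes are said to be chosen after their values were seen (Tnf, Mup13 and Adgrf1 among them). Alternatives were RLE, upper-quartile and no composition scaling, other filters, DESeq2 1.42.0, a 2-fold limit, the 24-library fit and leaving out each ear library. Figures were drawn with Python 3.11.15 (pandas 2.3.3, numpy 2.4.6, matplotlib 3.10.9).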

Additional observations from a re-analysis of the deposited data

Results flagged for a closer look

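For 6 of the 12 panel genes the effect of E7 in ear differed from its effect in grafts, by the interaction contrast of the edgeR fit of all 24 libraries with Benjamini-Hochberg adjustment over all genes tested. Each had a more positive effect in ear. Over all 16612 genes 14.7% differed, and 9.51% had a more positive effect in ear. The panel is not a sample of all genes, so 6 of 12 is not a rate. The difference in log2 fold change was 1.61 ± 0.20 (SE) for Mki67 (adjusted p = 3.47e-05), 4.94 ± 0.64 for Cdkn2a (4.11e-05), 2.21 ± 0.28 for Flg (4.19e-05), 1.91 ± 0.43 for Krt16 (0.00586), 2.46 ± 0.69 for Lpo (0.0233) and 3.52 ± 1.09 for S100a8 (0.0387). The first 3 passed under every alternative run, and the dependence of Krt16, Lpo and S100a8 on single libraries and on the day of the grafts stands beside their values above. Ear and graft also differ in flow cell and in the grafting itself, which cannot be told apart from the tissue.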

How the results depend on the processing

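The count of genes past the threshold in ear (10267) was 9176 with DESeq2, 9746 in the fit of all 24 libraries, 10214 with upper-quartile scaling and 10256 with library totals alone. With a limit of 2-fold it was 3363 (1252 rose, 2111 fell), fewer by construction. Leaving out 1 library gave 9425 to 9989 genes (4703 to 4933 rose, 4713 to 5056 fell). Rises were 5129 of the calls, and made up 39.1% of calls with upper-quartile scaling and 36.3% with library totals alone. Of 271 named genes tested, 269 were on the same side of the threshold with DESeq2, 254 in the fit of all 24 libraries, 262 with upper-quartile scaling and 261 to 267 without 1 library, with no change of sign among called genes.

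The count of genes whose effect differed between ear and grafts (2443) was 1234 against the 28-day grafts alone (853 more positive, 381 more negative), and upper-quartile scaling gave 1018 more positive and 1363 more negative. Without 1 ear library it was 1497 to 1953 (1049 to 1284 more positive, 448 to 860 more negative). The difference of Krt16 was -0.03 against the 28-day grafts alone; the cause was not tested. With the graft numbers as a replicate block it was 2598 genes (1689 and 909). Same-numbered grafts share only a number: their deviations from the group means correlated at -0.36 to 0.35, and 6 of 18 grafts correlated best with their own number. No paired analysis was possible within the ear because the E7 and C57 ears share no replicate numbers.

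Genes under 1 CPM rest on few reads, so that differences of low genes such as the germline, cytotoxic and B cell genes were often not detectable at this depth. Shifts of up to 0.15 on the log2 scale depend on the scaling.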

Other observations

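Genes of the inner root sheath of the hair follicle ran against the falls of the follicle regulators. Krt71, a sheath keratin, had 3.12, 8.50 and 12.9 CPM in E7 ears, against 1.16, 0.228 and 0.274 CPM in C57 ears (log2 fold change 3.92 ± 0.80; adjusted p = 0.00628). Krt25, another, had 3.41, 6.22 and 12.7 CPM in E7 ears, against 1.41, 0.0759 and 0.206 CPM in C57 ears (3.78 ± 0.90; 0.0132), with adjusted p = 0.0529 without C57-c and changes of 5.59 without C57-a and 3.15 without E7-c. Krt27 and Krt73 rose by 2.95 and 3.98, the call of Krt27 (0.0511) and that of Krt73 (0.0544) being lost in the fit of all 24 libraries; Krt71 changed by 4.96 and Krt73 by 4.70 without C57-a. Every E7 library stood above every C57 library in these 4 genes, which were chosen after their values were seen.

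The chitinase-like gene Chil4 was carried by a pair of libraries. It had 23.3, 1.28 and 35 CPM in E7 ears, against 0.249, 0.304 and 0.0685 CPM in C57 ears (6.55 ± 1.79; 0.0289), and its call was lost without any 1 library other than E7-b (0.0544 to 0.109). Chil3, its neighbour in the family, had 1.56, 1.19 and 3.46 CPM in E7 ears, against 0.414, 0.152 and 0.206 CPM in C57 ears (2.99 ± 0.55; 2.40 without E7-c). S100a9, the partner of S100a8, had 96.9, 53.6 and 196 CPM in E7 ears, against 6.63, 2.43 and 3.70 CPM in C57 ears (4.78 ± 0.75; 4.16 without E7-c). Library E7-c was highest of the E7 ears and E7-b lowest in all 3, and the same order held for S100a8 and Alox8. H2-Q7, a non-classical class I gene with near-identical copies, had 140.5, 91.6 and 132 CPM in E7 ears, against 20.4, 16 and 15.4 CPM in C57 ears (2.82 ± 0.20).

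B cell genes were near the limit of detection. Ms4a1 had 3 and 1 counts over the E7 and the C57 group, and Pax5 had none in either. Of 12 genes of B and plasma cells 5 could be tested, and of these Prdm1 and Sdc1 are also expressed by keratinocytes. Ighm, the mu heavy chain, had 18, 20.8 and 20.9 CPM in E7 ears, against 25.4, 27.2 and 25.1 CPM in C57 ears (-0.38 ± 0.09; adjusted p = 0.357 in the fit of all 24 libraries).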
